A study of Rattus norvegicus with 6 samples.

Results

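Sterol and fatty acid synthesis is described here through 31 genes, chosen by name for their known place in these pathways and read from the rows that carry those symbols in a table of 19289 features. All 31 symbols were found, once each. They are 5 regulators, 18 genes of the sterol branch and 8 genes of the fatty acid branch, and 30 of them passed the filter for testing (a mean of at least 1 FPKM over all libraries, FPKM being a fragment count divided by the transcript's length and the library's size). Scd did not pass. The samples were 6 RNA-seq libraries of INS-1E, a clone of a rat insulinoma line that makes insulin and stands for the pancreatic beta cell. In 3 the cells were untreated and in 3 they had been given uric acid (UA) for 24 hours, and the design asks which transcripts differ. Neither group is labelled with another agent or a genetic change, the sources used here state no dose or vehicle, and do not say whether libraries of a group came from separate cultures, so p-values measure the spread between these libraries, which may be technical.

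Cells build cholesterol from acetyl-CoA through mevalonate, squalene and lanosterol, and build fatty acids from the same acetyl-CoA through malonyl-CoA. Both branches are switched on by the SREBP transcription factors, which are made as membrane proteins of the endoplasmic reticulum. When sterols are scarce SCAP carries SREBP to the Golgi, where proteases free its active part, and when sterols are plentiful INSIG proteins hold SCAP back. Sterol genes answer mainly to SREBP2 and fatty acid genes mainly to SREBP1, which is also driven by insulin and by the sterol-sensing receptor LXR. In beta cells malonyl-CoA also restrains the burning of fatty acids.

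Srebf1 was the 1 gene of the 30 that passed the test between the groups, and it fell. None of the 18 sterol genes and none of the 7 tested fatty acid genes passed. All 7 of the latter had lower fitted values with uric acid, as did 6205 of 12460 tested features. Among the 7, Fads1 turned to 0.065 on the log2 scale without uric acid library 2. The sterol genes differed together between libraries of the same group. All 18 were higher in untreated library 2 than in untreated library 3, by 1.23-fold to 2.36-fold. So were the 7 tested fatty acid genes, by 1.02-fold (Acly) to 1.91-fold (Acss2). A difference of at least 1.2-fold was found for all 18, for 5 of the 7 and for 10.7% of all tested features. The test was edgeR's quasi-likelihood test with Benjamini-Hochberg adjustment over 12460 tested features, at an adjusted p under 0.05. Over all of them 7.98% were called, 4.99% as higher and 2.99% as lower with uric acid. Of the 30 genes, 0 were called higher and 1 lower, which is near the background in number. An unadjusted p under 0.05 was reached by 4 of the 30, against 25.7% of all tested features: Srebf1, 1 sterol gene (Pmvk) and 2 fatty acid genes (Fasn and Fads2). DESeq2 and limma also called 0 sterol genes, while DESeq2 called 1 fatty acid gene (Fasn) and limma 0. Over all tested features DESeq2 called 14.2% and limma, on log2(FPKM + 1), 6.59%.

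Depth ran lower with uric acid. Summed estimated counts were 47858248 to 59092982 in the untreated libraries and 41191819 to 48875962 in the uric acid libraries, lowest in uric acid library 2. Uric acid libraries 2 and 3 lay below all untreated ones. The cells carried the markers of their label: 11 of 12 listed beta-cell genes were found and all 11 had a mean of at least 1 FPKM. Of 23 markers of alpha, delta, PP, duct, acinar, fibroblast, endothelial and white blood cells, 12 were found and 1 reached 1 FPKM. That 1 was the glucagon gene Gcg, at 5.46 to 10.2 FPKM in the untreated and 7.47 to 10.6 FPKM in the uric acid libraries. In such bulk samples fewer cells of a kind and less RNA per cell cannot be told apart.

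Promoter sequences are shown for the gene that passed the test and for 5 genes of both branches that shared the library order described further on, chosen after their values were seen: 4 with an NF-Y box and, for contrast, Acat2 without one. They come from RefSeq, build GRCr8, which holds 300 bases around a start, 250 before it and 50 after it, for 25 of the 31 genes. Pmvk, Fdft1, Sqle, Acaca, Fasn and Elovl6 had no entry. Capitals mark the NF-Y box, CCAAT or its reverse complement ATTGG. NF-Y is a factor known to act beside SREBP at sterol promoters. Srebf1 has a pair of entries at different starts, a start further upstream and one further downstream on the minus strand. The lines below run 5′ to 3′ along the gene, in the order Srebf1 upstream (chr10:45529115-45529414, minus strand), Srebf1 downstream (chr10:45518961-45519260, minus strand), Hmgcs1 (chr2:53382054-53382353, plus strand), Idi1 (chr17:66547475-66547774, minus strand), Msmo1 (chr16:29746863-29747162, plus strand), Acss2 (chr3:164464453-164464752, plus strand) and Acat2 (chr1:50100590-50100889, plus strand).
Srebf1 upstream: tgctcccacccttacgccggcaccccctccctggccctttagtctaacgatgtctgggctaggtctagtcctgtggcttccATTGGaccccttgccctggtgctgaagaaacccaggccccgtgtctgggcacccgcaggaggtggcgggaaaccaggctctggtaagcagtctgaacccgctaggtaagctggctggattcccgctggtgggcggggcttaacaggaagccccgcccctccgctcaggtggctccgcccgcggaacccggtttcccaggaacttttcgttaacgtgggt
Srebf1 downstream: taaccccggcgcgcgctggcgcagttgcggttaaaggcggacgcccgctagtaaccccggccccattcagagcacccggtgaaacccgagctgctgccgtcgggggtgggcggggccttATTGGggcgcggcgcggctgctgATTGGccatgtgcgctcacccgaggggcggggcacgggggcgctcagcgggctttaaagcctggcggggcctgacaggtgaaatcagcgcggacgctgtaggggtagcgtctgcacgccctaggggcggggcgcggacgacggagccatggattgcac
Hmgcs1: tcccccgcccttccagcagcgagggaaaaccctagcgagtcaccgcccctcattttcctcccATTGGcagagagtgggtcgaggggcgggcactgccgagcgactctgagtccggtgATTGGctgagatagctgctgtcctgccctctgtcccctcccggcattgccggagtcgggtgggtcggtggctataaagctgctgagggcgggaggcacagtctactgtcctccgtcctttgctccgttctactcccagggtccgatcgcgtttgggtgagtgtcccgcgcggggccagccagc
Idi1: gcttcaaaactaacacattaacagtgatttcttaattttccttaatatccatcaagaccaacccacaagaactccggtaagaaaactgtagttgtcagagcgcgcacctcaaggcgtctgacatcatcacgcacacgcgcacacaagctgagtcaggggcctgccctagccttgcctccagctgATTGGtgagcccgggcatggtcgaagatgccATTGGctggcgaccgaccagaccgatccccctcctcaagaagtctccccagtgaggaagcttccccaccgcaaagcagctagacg
Msmo1: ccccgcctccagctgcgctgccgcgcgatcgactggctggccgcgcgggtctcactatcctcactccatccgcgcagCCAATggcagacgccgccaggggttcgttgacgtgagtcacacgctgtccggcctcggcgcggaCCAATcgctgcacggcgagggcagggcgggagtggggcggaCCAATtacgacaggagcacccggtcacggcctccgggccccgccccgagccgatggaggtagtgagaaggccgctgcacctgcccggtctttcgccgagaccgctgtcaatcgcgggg
Acss2: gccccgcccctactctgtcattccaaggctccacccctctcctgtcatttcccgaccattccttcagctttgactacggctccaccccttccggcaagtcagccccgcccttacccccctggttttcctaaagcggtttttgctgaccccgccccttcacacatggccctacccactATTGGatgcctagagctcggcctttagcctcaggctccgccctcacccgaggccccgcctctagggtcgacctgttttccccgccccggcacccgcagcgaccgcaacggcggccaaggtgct
Acat2: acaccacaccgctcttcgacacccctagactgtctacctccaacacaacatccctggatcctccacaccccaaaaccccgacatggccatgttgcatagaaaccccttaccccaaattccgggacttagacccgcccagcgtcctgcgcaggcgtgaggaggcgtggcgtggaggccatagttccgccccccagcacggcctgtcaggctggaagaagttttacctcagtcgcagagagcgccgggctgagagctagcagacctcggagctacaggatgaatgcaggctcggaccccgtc

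The NF-Y box was found on either strand in 12 of 15 sterol genes with an entry, 3 of 5 fatty acid genes and 4 of 5 regulators. Among the 8751 tested features with an entry the share was 39.3%, and among all 33469 promoters 37.5%. Gene shares count a gene once when any of its entries holds the letters. Within the window above, Hmgcs1 has 2 boxes, at 188 and 133 bases before its start. Msmo1 has 3, at 173, 109 and 68 bases before, and Acss2 has 1, at 73 bases before. Nsdhl and Mvk hold 5 each, and Cyp51, Acat2 and Dhcr7 hold none. A GC box, GGGCGG on either strand, the site of Sp1, was found in 13 of the 15 sterol genes, 4 of the 5 fatty acid genes and 4 of the 5 regulators, against 66.7% of tested features and 33.1% of all promoters. TCACNCCAC, the strict form of the sterol regulatory element, was in none of the 25 genes, in 1.18% of tested features and in 1.12% of all promoters. The E-box CACGTG was found in Scap, Insig1 and Sc5d (3 of 25, against 10.2% of tested features and 6.42% of all promoters). TGATGNAA, the element of C/EBP and ATF factors, was in none (2% of tested features and 3.98% of all promoters). Each motif was counted on its own, and matches that overlap another motif were kept. A match is a description of letters in this window and was not tied to the expression values.

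**Figure D1:**
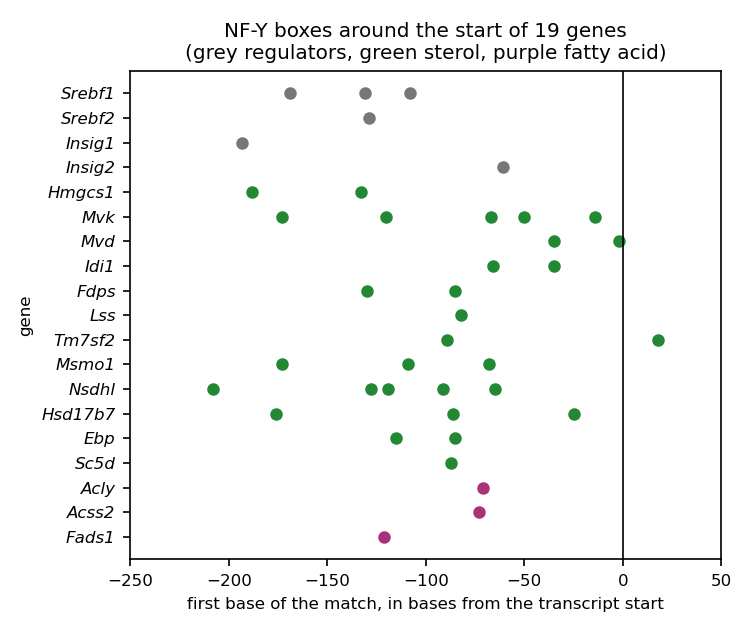
Place of each NF-Y box (first base of the match, in bases from the transcript start, either strand) in the 19 genes that hold one, 1 row per gene. All but 1, in Tm7sf2, begin before the start, and Nsdhl and Mvk carry 5 each.

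Srebf1 encodes SREBP1, the member of the family that mainly serves fatty acid synthesis. Its level was 44.7, 44.7 and 46.5 FPKM untreated and 38.5, 36 and 35.5 FPKM with uric acid, here and below in the order of libraries 1, 2 and 3. The 3 untreated libraries lay close together and above all 3 uric acid libraries. Its mean fell from 45.3 ± 1.01 to 36.7 ± 1.6 FPKM (SD, n = 3 each), 19.2% lower, with a log2 fold change of -0.31 ± 0.06 (SE) and an adjusted p of 0.0199 in edgeR. The call was lost in edgeR fits without untreated library 1 (adjusted p = 0.0573), 2 (0.0904) or 3 (0.0685) and without uric acid library 1 (0.0653). Those fits called 1.85% to 3.97% of all tested features. The call held without uric acid library 2 (0.029) or 3 (0.0428), in fits that called 6.11% and 9.41%. With 1 library left out, the log2 fold change of Srebf1 ran from -0.33 to -0.28. Srebf1 (ENSRNOG00000003463) lies on chromosome 10 from 46570996 to 46593009 on the minus strand in the deposited table, for which no source used here names the build. It overlaps Rai1 on the other strand, which had a log2 fold change of -0.25 (adjusted p = 0.0743), and with no strand setting stated for the counting, reads from the pair cannot be told apart. The gene-level values do not separate the starts of Srebf1 shown above.

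The other 4 regulators did not pass the test. Srebf2, which encodes the factor for sterol genes, stood at 63.9, 66.8 and 52.4 FPKM untreated and 61.3, 46.1 and 66.9 FPKM with uric acid, and the groups overlapped fully. Its log2 fold change was -0.07 with a 95% interval from -0.37 to 0.23. Scap, the escort of SREBP, stood at 15.8, 15.7 and 14.9 against 16.7, 16.4 and 17 FPKM. All 3 uric acid libraries lay above the untreated ones, but the difference was small at 0.11 ± 0.06 on the log2 scale (adjusted p = 0.312). Groups that do not overlap in FPKM were found for 3 of the 30 genes (Srebf1, Scap and Fasn), against 31% of all tested features. Insig1, which anchors SCAP and is itself a sterol-responsive target, ranged most of the regulators: 77.7, 108 and 63.3 FPKM untreated and 122, 82.1 and 96.5 FPKM with uric acid. Its groups overlapped, and its log2 fold change was 0.27 (interval -0.15 to 0.70, adjusted p = 0.393). Insig2, the second anchor, stood lower at 10.8 ± 1.04 and 11.9 ± 0.979 FPKM (adjusted p = 0.524).

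**Figure D2:**
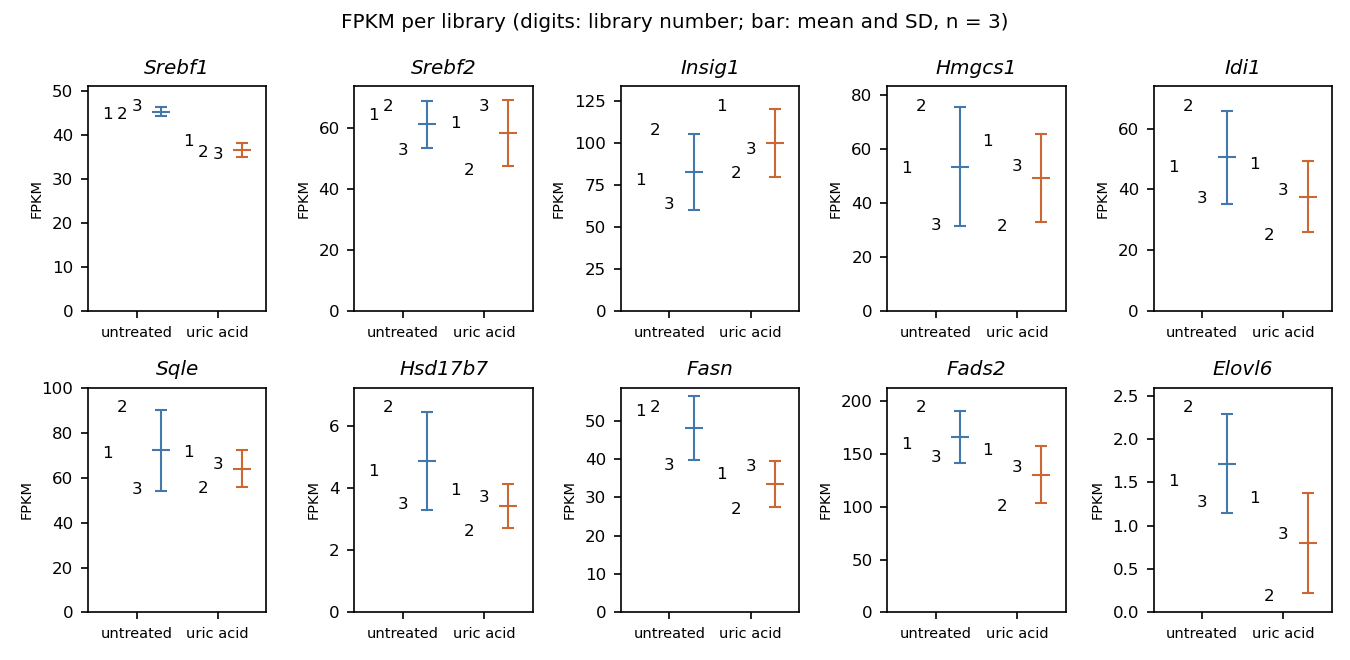
FPKM of 10 genes in each library (vertical axis from 0, digits give the library number in its group, bars the mean and SD of 3). Srebf1 separates the groups with little spread, whereas Hmgcs1 and Idi1 are high in untreated library 2 and low in untreated library 3 and uric acid library 2.

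In the mevalonate part of the sterol branch 7 genes were tested and none passed. Hmgcs1 makes HMG-CoA, the substrate from which mevalonate is formed. It stood at 53, 75.9 and 31.6 FPKM untreated and 62.9, 31.2 and 53.8 FPKM with uric acid. The lowest values of both groups were nearly level, and untreated library 2 was 2.36-fold above untreated library 3. The log2 fold change between the groups was -0.12 ± 0.31 (interval -0.81 to 0.58, adjusted p = 0.848). Idi1 isomerises the isoprene unit, and was at 47.2, 67.3 and 37 FPKM against 48.2, 24.9 and 39.8 FPKM, with a log2 fold change of -0.43 (interval -0.99 to 0.13, adjusted p = 0.316). Here too untreated library 2 was the highest and uric acid library 2 the lowest of the 6. Acat2, the cytosolic thiolase that joins 2 acetyl-CoA units, was at 18.2, 23.7 and 12.4 against 17.6, 8.84 and 17 FPKM (-0.32, adjusted p = 0.492). Fdps, which makes farnesyl diphosphate, was the most abundant of this part at 138 ± 33.6 and 117 ± 19.8 FPKM (-0.24, adjusted p = 0.394). The kinase Mvk (0.06, adjusted p = 0.841) and the decarboxylase Mvd (-0.12, 0.66) were near 0 on the log2 scale.

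Pmvk, phosphomevalonate kinase, differed from its neighbours in the pathway. It was at 18, 22.6 and 17.7 FPKM untreated and 25.6, 26.6 and 21 FPKM with uric acid, and was the 1 sterol gene at its highest in uric acid library 2. Its groups overlapped through untreated library 2 and uric acid library 3. The log2 fold change of 0.33 (interval 0.04 to 0.62) had an adjusted p of 0.152. It was also the 1 sterol gene whose interval, which is not adjusted for the number of features, left out 0.

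The squalene part, in which the pathway commits to sterols, had 3 genes and none passed. Sqle, squalene epoxidase and a slow step of the pathway, was at 70.7, 91.2 and 54.9 FPKM untreated and 71.2, 55.2 and 66.2 FPKM with uric acid. Fdft1, squalene synthase, was at 31.3, 42.2 and 20.4 against 35.8, 23.8 and 27.8 FPKM, and Lss, which closes the rings to lanosterol, at 20.2, 23.9 and 16.1 against 18.8, 13.1 and 18 FPKM. All 3 genes put untreated library 2 highest and untreated library 3 lowest of the untreated, and uric acid library 2 lowest of the treated. Their log2 fold changes were -0.17, -0.10 and -0.27, with adjusted p of 0.539, 0.819 and 0.317 in edgeR.

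After lanosterol 8 genes were tested and none passed. Cyp51, the demethylase of lanosterol, was at 93.4, 136 and 81.2 FPKM untreated and 110, 78.3 and 86.3 FPKM with uric acid (-0.18, adjusted p = 0.57). Msmo1, which removes methyl groups from the next intermediates, was the most abundant sterol gene, at 148, 197 and 111 against 204, 133 and 157 FPKM (0.12, adjusted p = 0.747). Hsd17b7, a reductase of the same steps, had the lowest fitted value of the branch. It was at 4.52, 6.57 and 3.47 FPKM untreated and 3.93, 2.62 and 3.71 FPKM with uric acid, a log2 fold change of -0.50 (interval -1.02 to 0.01, adjusted p = 0.204). The uric acid values lay around that of the lowest untreated library and below the other two. Dhcr7, the last reductase before cholesterol, was at 49.7 ± 7.79 and 41.6 ± 6.42 FPKM (-0.26, adjusted p = 0.249). The dehydrogenase Nsdhl had -0.26 (0.381), the isomerase Ebp -0.15 (0.459), the reductase Tm7sf2 -0.11 (0.66) and the desaturase Sc5d 0.18 (0.389). Tm7sf2 overlaps Vps51 on the same strand and Idi1 overlaps Wdr37 on the other strand, so their values are uncertain.

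Over the 18 sterol genes 14 fitted values were below 0 and 4 above, with a median log2 fold change of -0.16 beside 0.0013 for all tested features. The median is set by single libraries, running from -0.32 without untreated library 3 to -0.08 without uric acid library 2 and 0.02 without untreated library 2. For all 18 genes the range of the 3 untreated libraries was larger than the fitted change, which was so for 61.9% of all tested features. The median spread within groups (SD of log2 CPM, counts scaled to a fixed library total) was 0.283 for the sterol genes and 0.136 for all tested features. Among features in the same range of FPKM, 4.14 to 158, it was 0.119, and 6.9% of these 9133 features had a spread as large as the sterol median. The median SE of a fold change was 0.163 against 0.113 for all features, so small changes are harder to call for these genes.

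**Figure D3:**
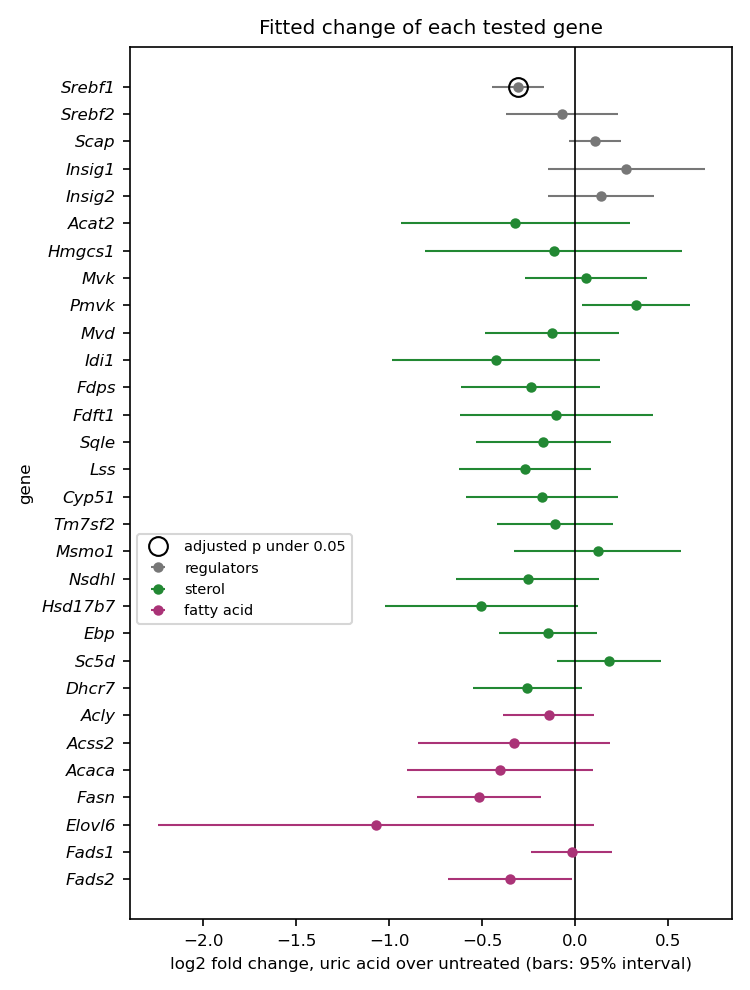
Fitted log2 fold change, uric acid over untreated, with its 95% interval for the 30 tested genes, grouped as regulators (grey), sterol branch (green) and fatty acid branch (purple). Only Srebf1 is ringed as called, at -0.31, and Elovl6 has the widest interval, from -2.24 to 0.10.

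The fatty acid branch begins with acetyl-CoA supply. Acly, which releases acetyl-CoA from citrate, was the most abundant of all 31 genes, at 461, 459 and 443 FPKM untreated and 423, 337 and 477 FPKM with uric acid. The untreated libraries lay close together and the treated ones spread to both sides of them (-0.14, adjusted p = 0.441). Acss2, which makes acetyl-CoA from acetate, was at 19.7, 28 and 14.4 against 19.7, 12.3 and 17.3 FPKM (-0.33, adjusted p = 0.401). It followed the order of the sterol genes, with untreated library 2 at 1.91-fold of untreated library 3.

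Acaca and Fasn build the chain. Fasn, fatty acid synthase, was at 52.4, 53.3 and 38.4 FPKM untreated against 36, 26.8 and 38 FPKM with uric acid. The groups did not overlap, but by a narrow margin, since untreated library 3 and uric acid library 3 were nearly level. Fasn averaged 48 ± 8.35 and 33.6 ± 6 FPKM (SD, n = 3), a log2 fold change of -0.52 ± 0.15, and missed the threshold in edgeR with an adjusted p of 0.065. It passed with DESeq2 (adjusted p = 0.00499), which called 14.2% of all tested features. In edgeR it passed without untreated library 3 (0.0418, 3.97% of all called) or uric acid library 3 (0.0468, 9.41%). It was at 0.0947 to 0.227 in the other 4 edgeR fits with 1 library left out. Fasn (ENSRNOG00000045636) lies on chromosome 10 from 109987735 to 110005901 on the minus strand. Acaca, acetyl-CoA carboxylase, which makes malonyl-CoA, was at 9.39, 8.64 and 6.09 against 6.78, 3.99 and 7.46 FPKM. Its groups overlapped and its log2 fold change was -0.40 (interval -0.91 to 0.10, adjusted p = 0.29).

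The genes that lengthen and desaturate chains differed widely in level. Fads2, the delta-6 desaturase, was at 159, 194 and 146 FPKM untreated and 153, 101 and 137 FPKM with uric acid (-0.35, interval -0.69 to -0.02, adjusted p = 0.175). Fads1, the delta-5 desaturase beside it on chromosome 1, was at 105, 122 and 100.1 against 118, 94.1 and 111 FPKM, with a log2 fold change of -0.02 (interval -0.24 to 0.20). Uric acid libraries 2 and 3 lay below all untreated ones for Fads2, and only library 2 did for Fads1. The difference between the pair was not tested. Elovl6, the elongase of palmitate, was near the floor of the filter at 1.51, 2.36 and 1.27 FPKM untreated and 1.32, 0.185 and 0.903 FPKM with uric acid. Its estimated counts were 122, 168 and 83 against 87, 11 and 56, so its fitted value of -1.07 ± 0.52 (adjusted p = 0.233) rests on few reads. Leaving out uric acid library 2 gave -0.62, and leaving out library 1 of that group gave -1.61. Scd, the stearoyl-CoA desaturase named in the list, was lower still, at 0.124, 0.162 and 0.0968 FPKM untreated and 0.0774, 0.0556 and 0.0425 FPKM with uric acid, and was left out of the test. When every feature with a count was fitted its log2 fold change was -1.10 ± 0.48 (edgeR adjusted p = 0.263). Its paralog Scd2 was the abundant desaturase of these cells, at 398, 456 and 370 FPKM untreated and 345, 225 and 305 FPKM with uric acid. The groups of Scd2 did not overlap, and its log2 fold change was -0.49 ± 0.14 (adjusted p = 0.0642).

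Library by library, the sterol branch was high in untreated library 2 and low in untreated library 3 and uric acid library 2. As the mean over its 18 genes of log2 CPM minus the untreated mean, it was -0.02, 0.33 and -0.31 untreated and 0.09, -0.40 and -0.09 with uric acid. Taken as a percentage of the untreated mean these levels ran from 75.8% in uric acid library 2 to 126% in untreated library 2. In the 3 untreated libraries alone, which had the same label, they ran from 80.7% to 126%. The group means differed by -0.13, less than the SD within either group (0.323 untreated, 0.248 uric acid). Without single libraries the difference ran from -0.29 (untreated library 3) through -0.00088 (uric acid library 2) to 0.033 (untreated library 2). The same order of libraries was seen in the mevalonate part (0.35 in untreated library 2, -0.34 in untreated library 3), the squalene part (0.37, -0.39) and the genes after lanosterol (0.31, -0.25). Over all tested features the mean lay between -0.009 and 0.016 in every library.

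This order was noticed in the values and is given as a description. Of the 18 sterol genes, 15 had untreated library 2 highest and untreated library 3 lowest of their group, and uric acid library 2 lowest of its own, as did 5 of the 7 fatty acid genes and 2 of the 5 regulators (Srebf2 and Insig1). Among all tested features the share was 5.27%. The exceptions in the sterol branch were Pmvk, Tm7sf2 and Ebp. Untreated library 2 was at least 1.2-fold above untreated library 3 for 18 of the 18 sterol genes and 5 of the 7 fatty acid genes, against 10.7% of tested features. The largest ratios were those of Hmgcs1 (2.36), Fdft1 (2.03), Acss2 (1.91), Acat2 (1.87), Hsd17b7 (1.86) and Elovl6 (1.81). Srebf1 did not share it, with a ratio of 0.946, nor did Acly (1.02) or Scap (1.04). Together the 31 genes held 0.744, 0.854 and 0.65% of the estimated counts untreated and 0.74, 0.553 and 0.727% with uric acid. Uric acid library 2 was also the shallowest library, and the part of depth in these values was not tested.

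**Figure D4:**
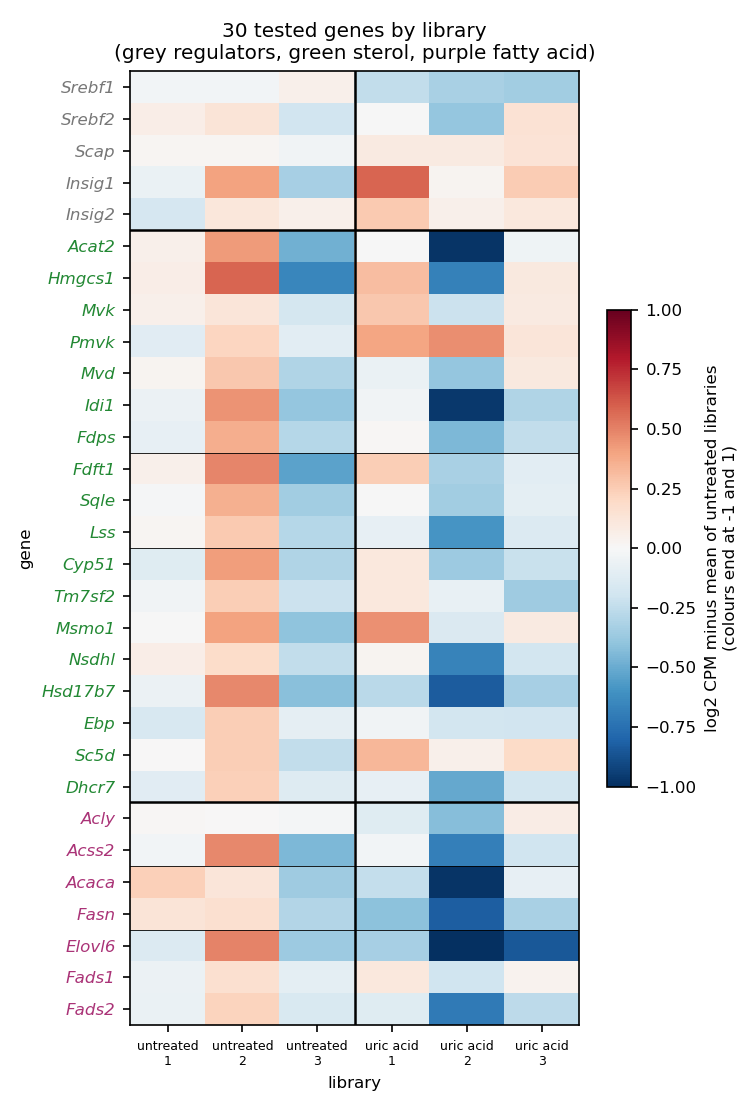
Level of each of the 30 tested genes in each library as log2 CPM minus the mean of the untreated libraries (red above, blue below, colours end at -1 and 1). Untreated library 2 is red and untreated library 3 blue for all 18 sterol genes, and uric acid library 2 is the bluest column.

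The fatty acid branch followed the same order but sat lower in the uric acid libraries. Its mean over 7 genes was 0.01, 0.23 and -0.25 untreated and -0.16, -0.96 and -0.23 with uric acid. The groups overlapped, since untreated library 3 lay below uric acid libraries 1 and 3. The group means differed by -0.45, beside an SD of 0.242 among untreated and 0.441 among uric acid libraries. Without Elovl6 they differed by -0.30, and without uric acid library 2 by -0.20. The median fitted log2 fold change over the 7 was -0.35, beside -0.16 for the sterol branch, and it ran from -0.53 without untreated library 3 to -0.18 without uric acid library 2.

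Set against each other, the sterol branch minus the fatty acid branch was -0.04, 0.10 and -0.06 untreated and 0.26, 0.56 and 0.13 with uric acid on the log2 scale. All 3 uric acid libraries were above all 3 untreated ones, so the fatty acid genes were lower relative to the sterol genes in each treated library. This rests in part on Elovl6 in uric acid library 2, where that gene had 11 estimated counts. Without Elovl6 the values were -0.06, 0.14 and -0.08 against 0.23, 0.24 and 0.03, and the groups overlapped. With the median over genes in place of the mean they were -0.04, 0.10 and -0.06 against 0.08, 0.27 and 0.02, measured from the untreated mean, and overlapped as well. On the scale of log2(FPKM + 1) they were -0.04, 0.12 and -0.08 against 0.23, 0.31 and 0.08, which also overlapped. The mean difference between the groups was 0.32 with all genes, 0.17 without Elovl6, 0.13 with medians and 0.21 with log2(FPKM + 1). Without uric acid library 2 it was 0.20. No p is given for these scores, because the genes were listed with results of these data known.

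**Figure D5:**
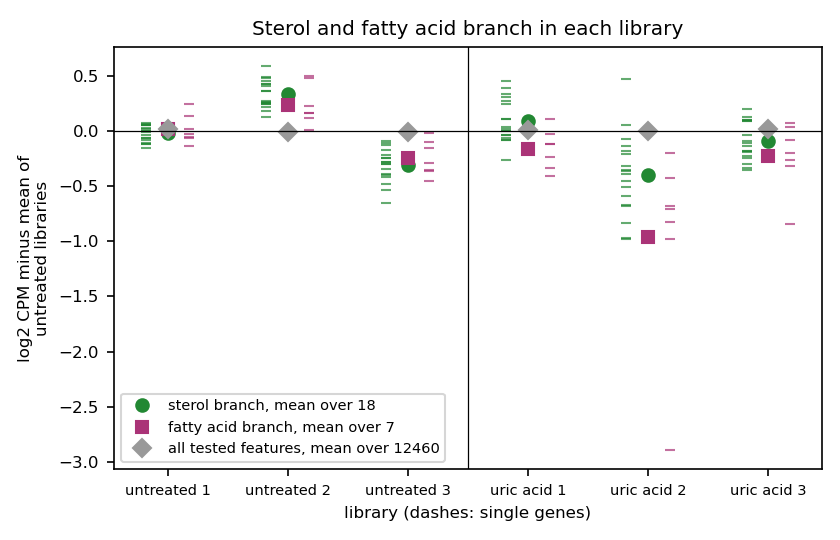
Mean of the 18 sterol genes (green circles), the 7 tested fatty acid genes (purple squares) and all 12460 tested features (grey diamonds) in each library, as log2 CPM minus the untreated mean, with dashes for single genes. Both branches are highest in untreated library 2 and lowest in uric acid library 2, where the fatty acid mean is -0.96 and the sterol mean -0.40.

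Of 43 further genes listed for the pathway, 41 were in the table and 39 were tested. Of these 2 rose and 1 fell, near the 7.98% called over all tested features, and their median log2 fold change was -0.06. Lpin1, a phosphatidate phosphatase that makes diacylglycerol for fat storage, rose from 6.54 ± 0.722 to 10 ± 1.8 FPKM (0.61 ± 0.14, edgeR adjusted p = 0.0309). Npc1, which exports cholesterol from the lysosome, was at 7.06, 7.1 and 6.34 FPKM untreated and 8.54, 8.43 and 8.69 FPKM with uric acid (0.32 ± 0.07, 0.0334). Mlx, the partner of the glucose-sensing factor ChREBP, fell from 66.1 ± 1.09 to 54.5 ± 2.48 FPKM (-0.28 ± 0.06, 0.0294). In all 3 genes the groups did not overlap, which held for 14 of the 39 genes and 31% of all tested features. Each of these calls was lost in 5 of the 6 fits with 1 library left out and held only without uric acid library 2. The 5 fits called 1.85% to 9.41% of all tested features. In those 5 the edgeR adjusted p ran from 0.0592 to 0.125 for Lpin1, from 0.0516 to 0.117 for Npc1 and from 0.0597 to 0.142 for Mlx. With limma the calls of Npc1 (adjusted p = 0.0715) and Lpin1 (0.0555) were lost too, and with every feature fitted that of Npc1 (0.0558).

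The library order of the sterol genes was also met by 12 of these 39 genes. The proteases that free SREBP did not meet it. Mbtps1 was at 18.4 ± 0.75 and 20.1 ± 1.01 FPKM (adjusted p = 0.272) and Mbtps2 at 3.83 ± 0.53 and 4.88 ± 0.172 FPKM (0.35 ± 0.11, adjusted p = 0.0809).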

How the data were processed

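Per the labels' protocols, polyadenylated RNA was copied into dUTP-marked libraries and sequenced as read pairs. Tools listed in the submitters' processing notes, with no role for any, were StringTie 1.3.4d, HISAT2 2.0.4, cutadapt 1.9, edgeR and DESeq2. Strand setting and genome build are not given in the sources used here. Per the file headers, every library has its own FPKM and count columns in the deposited table. The deposited FPKM values were computed by the authors. The deposited counts came from the authors and are called estimated counts here. Over 3171 low values of small noncoding RNAs, 97% equalled the FPKM times length and a library constant, rounded up (tolerance 0.02). Counts of read pairs could match as well, since FPKM is itself a count divided by length and library size. The match therefore cannot show how the counts were made.

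The counts were rounded to whole numbers and fitted with edgeR 4.0.16 in R 4.3.3 (TMM factors 0.992 to 1.01, no covariate, all 6 libraries, mean FPKM of at least 1). Intervals are 95% and not adjusted. Levels by library are log2 CPM with a prior count of 2. An exact permutation test of 3 libraries against 3 cannot go below p = 0.1. Alternatives were other scalings and filters, counts divided by 4, DESeq2 1.42.0, limma 3.58.1 on log2(FPKM + 1), a replicate block, and each library left out. The medians over genes, the branch levels without Elovl6 and the mean branch levels without each library were chosen after seeing the data. The genes and lists were chosen with earlier results of these data known. Every member was to be named, and of the other listed genes those past the threshold; Scd2, Mbtps1 and Mbtps2 were named after their values were seen. Some listed genes are not reported here by name. Promoters were matched by symbol to RefSeq entries of build GRCr8 and searched on both strands.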

Additional observations from a re-analysis of the deposited data

How the results depend on the processing

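The number of genes called lower (Srebf1 in the reported fit) was 2 with DESeq2, where Fasn was added, and 0 with the replicate number as a block (replicate block), where Srebf1 had an adjusted p of 0.0881, Npc1 of 0.112, Mlx of 0.104 and Lpin1 of 0.095, none of them called, and 322 of all features were called in place of 994. With 1 library left out it ran from 0 to 2. No gene was called higher, and no sterol gene was called, in any of the 17 alternatives. Fatty acid genes called numbered 1 with DESeq2 (1765 of all features called) and 0 to 1 with 1 library left out, Fasn each time. Deviations from the group means had correlations across genes of 0.0684, -0.0492 and -0.19 between same-numbered libraries. Between unlike numbers they ran from -0.2253 (untreated 1 with uric acid 2) to 0.259 (untreated 3 with uric acid 2). These values cannot show whether same-numbered libraries shared a culture, which the sources used here do not say.

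The sterol minus fatty acid difference between groups was 0.13 with medians over genes. Of 508 values of single genes under the alternatives, 484 kept their sign and their side of the threshold, 5 lost the call (Srebf1), 3 gained it (Fasn) and 16 changed sign, all with 1 library left out and none past the threshold. Among fits with 1 library left out, the lowest and highest log2 fold changes were -0.18 and 0.0665 for Srebf2, -0.38 and 0.22 for Hmgcs1, -0.0553 and 0.18 for Mvk, -0.26 and 0.0184 for Mvd, -0.33 and 0.17 for Fdft1, -0.33 and 0.0268 for Sqle, -0.32 and 0.0621 for Cyp51, -0.22 and 0.0255 for Tm7sf2, -0.0574 and 0.34 for Msmo1 and -0.0808 and 0.065 for Fads1. With 1 library left out, 26 of the 30 log2 fold changes moved by over 1.5 times relative to their value with all libraries. This is a ratio of log2 values and not a fold in level, and it is easily large near 0, as for Ebp (-0.23 to -0.013). Of the 26, 16 kept their sign throughout, among them Idi1 (-0.63 to -0.17), Hsd17b7 (-0.69 to -0.23), Acat2 (-0.53 to -0.070) and Acss2 (-0.53 to -0.054). Fits without a library have fewer residual degrees of freedom. A mean of at least 5 FPKM left out Elovl6 and Hsd17b7. Low counts limit Elovl6 and Scd.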
